A study of Mus musculus with 6 samples.

Results

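The genes described here are the oestrogen receptor gene Esr1, the related orphan receptor gene Esrra, and 4 genes known to respond to oestrogen receptor in other cells, Ctsd, Greb1, Nrip1 and Myb. They were chosen by name, as a check on the drug used to delete Ezh2, and all 6 were found among the 22933 genes of the deposited table by their Ensembl identifiers. The cells were mouse embryonic stem cells with both Ezh2 alleles floxed, grown in serum with leukaemia inhibitory factor. Untreated cells (3 libraries, labelled wild type for Ezh2) were compared with cells given 4-hydroxytamoxifen at 800 nM for 96 h (3 libraries, labelled Ezh2 KO), with RNA taken after 4 days. All libraries thus came from cells that began with both Ezh2 alleles floxed. Every treated library differs from every untreated one in both drug and labelled genotype. An effect of the drug and an effect of losing Ezh2 cannot be told apart. The recombinase that cuts the alleles and its promoter are not named in the labels. No statement says whether the 3 libraries of a group came from separate cultures, so the p-values measure only the spread between these libraries, which may be technical.

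Oestrogen receptor alpha, the product of Esr1, is a nuclear receptor that binds DNA as a dimer when it holds ligand and recruits coactivators or corepressors. 4-hydroxytamoxifen is an active metabolite of tamoxifen that occupies the ligand pocket of the receptor and blocks the coactivator surface in breast cells, while acting as an agonist in some other tissues. Recombinases made inducible by this drug usually carry a mutated receptor ligand-binding domain. The product of Esrra, oestrogen-related receptor alpha, needs no known hormone, binds a similar DNA core, and drives genes of mitochondrial energy use. Its paralogue Esrrb is part of the transcription factor network of mouse embryonic stem cells.

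The promoters of these genes are shown first, because the DNA core read by both kinds of receptor can be looked for in them. RefSeq windows on GRCm38.p6, each with 250 bases before and 50 bases after a transcript start, were found for 6 of 6 genes and came to 9 windows. The core motif GGTCA, searched on both strands so that it also reads as TGACC, was in windows of Ctsd, Greb1, Nrip1 and Esr1, and is in capitals in the sequences that follow. These run 5′ to 3′ along the coding strand, and the 3 longer ones cover the 250 bases before the start.
Ctsd, chr7:142387828-142388077, minus strand: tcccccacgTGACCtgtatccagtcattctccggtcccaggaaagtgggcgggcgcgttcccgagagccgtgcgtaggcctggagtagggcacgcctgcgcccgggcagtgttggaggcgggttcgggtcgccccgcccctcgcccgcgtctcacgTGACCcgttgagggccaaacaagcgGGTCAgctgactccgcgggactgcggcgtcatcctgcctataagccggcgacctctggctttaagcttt
Greb1, chr12:16800887-16801136, minus strand: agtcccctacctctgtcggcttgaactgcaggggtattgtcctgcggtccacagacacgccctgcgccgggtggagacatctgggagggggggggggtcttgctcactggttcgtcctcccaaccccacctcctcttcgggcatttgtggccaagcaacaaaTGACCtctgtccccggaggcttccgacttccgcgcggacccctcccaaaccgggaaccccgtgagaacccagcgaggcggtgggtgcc
Nrip1, chr16:76373828-76374077, minus strand: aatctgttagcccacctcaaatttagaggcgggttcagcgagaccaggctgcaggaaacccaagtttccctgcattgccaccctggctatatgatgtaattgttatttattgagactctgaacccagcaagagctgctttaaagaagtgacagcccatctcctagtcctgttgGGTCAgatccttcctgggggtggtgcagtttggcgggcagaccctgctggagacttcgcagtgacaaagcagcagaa
Esr1, chr10:4611992-4612021, plus strand, 30 bases just after the start: tcctaatttcatGGTCAtaacagcctcgga

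The Ctsd window held 3 copies of the core, with their leftmost bases at -241, -94 and -69 from the start. Greb1 held 1 copy at -88 in the window shown and 2 copies, at -194 and -85, in a window at a downstream start. Nrip1 held 1 copy at -77, and Esr1 held 1 copy at 16 bases after the start. The windows of Myb and Esrra held 0 copies. A 5-letter core is common, and 40.5% of the 32851 windows of all genes hold it. The full receptor palindrome GGTCANNNTGACC was in 0.0700% of all windows and in 0 of these 9. The longer element bound by oestrogen-related receptors, TCAAGGTCA, was in 0.423% of all windows and in 0 of the 9. The GC box GGGCGG, which binds Sp1, a factor that can tether oestrogen receptor, was found 2 times in the window of Ctsd, 3 times in that of Myb, 2 times in that of Esrra and 2 times in 1 of 2 windows of Nrip1. It was in 35.7% of all windows. A match describes letters in a short window, and receptor sites often lie far outside it.

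Depth was low. The reads recovered from the deposited values came to between 2333278 and 5689616 per library, and the 10 most abundant genes took between 20.2% and 36.8% of them. Ezh2, the targeted gene, had deposited values of 4165, 3620.4 and 3483 in untreated and 2258, 2559 and 2609 in treated libraries. The groups did not overlap, but Ezh2 was not called (log2 fold change -0.60 at a limma adjusted p of 0.195). Reads divided by a size factor per library (scaled reads) did not overlap for Ezh2 either, at -0.40 and a limma adjusted p of 0.698. In reads over the library total, scaled to a common size (RPM), Ezh2 overlapped, with 180, 97.9 and 67.6 in untreated and 72.0, 123 and 102 in treated libraries. That log2 difference was -0.13, or -0.38 relative to the median gene. As for the label of the cells, all 8 pluripotency markers checked, Pou5f1, Sox2 and Nanog among them, had reads, and together they held 956 to 1642 RPM in untreated and 1123 to 1522 in treated libraries. On scaled reads their sum was 5239 to 5651 in untreated and 4334 to 4848 in treated libraries, lower without overlap. On the deposited scale 2 of these 8 stood higher, none called, with a median log2 fold change of -0.05. Of 8 fibroblast markers Lum was at 0 reads in every library, and the list summed to 3.73 to 12 RPM in untreated and 5.20 to 18.4 in treated libraries. Of 8 primitive endoderm markers, 8 stood higher on the deposited scale, none called, with summed levels of 153 to 299 RPM in untreated and 477 to 687 in treated libraries. Trophoblast markers summed to 31.7 to 75.9 against 81.1 to 111 RPM, with 7 of 7 tested markers higher and none called. The part of such cells in the results that follow was not tested. In bulk RNA, fewer cells of a type and less RNA per cell cannot be told apart.

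None of the 6 genes was called. The test, limma on log2(deposited value + 1) over the 17427 genes whose mean value reached 10, calls a gene at a Benjamini-Hochberg adjusted p under 0.05, and 0.195% of all genes were called by it. Adjusted p for the 6 genes lay between 0.342 and 0.812. At an unadjusted p under 0.05 the 3 genes Esr1, Ctsd and Myb passed, where 9.34% of all genes did. The 3 deposited values of 1 group all lay beyond those of the other for Esr1, Esrra, Ctsd and Myb, 4 of 6, where 15.3% of all genes showed this. Ctsd and Esrra were the higher pair after treatment, where 7.92% of all genes were separate and higher, and Esr1 and Myb the lower pair, where 7.33% were separate and lower. For each of these 4 the exact permutation p (two-sided) was 0.1, the smallest that 3 against 3 libraries allow.

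Reads recovered from the deposited values, divided by a size factor per library, gave a check on that scale. These scaled reads were separate for 2 of 6 genes, Esr1 and Myb, both lower, where 13.3% of all genes were separate (6.81% higher and 6.5% lower). On scaled reads 0 of 6 genes were called, where 0.0287% of all genes were, and the same 2 passed an unadjusted p under 0.05, where 7.76% did. On RPM 0 of 6 were called, where 0.0402% of all genes were, and 1 of 6 passed an unadjusted p under 0.05, where 7.02% did.

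**Figure D1:**
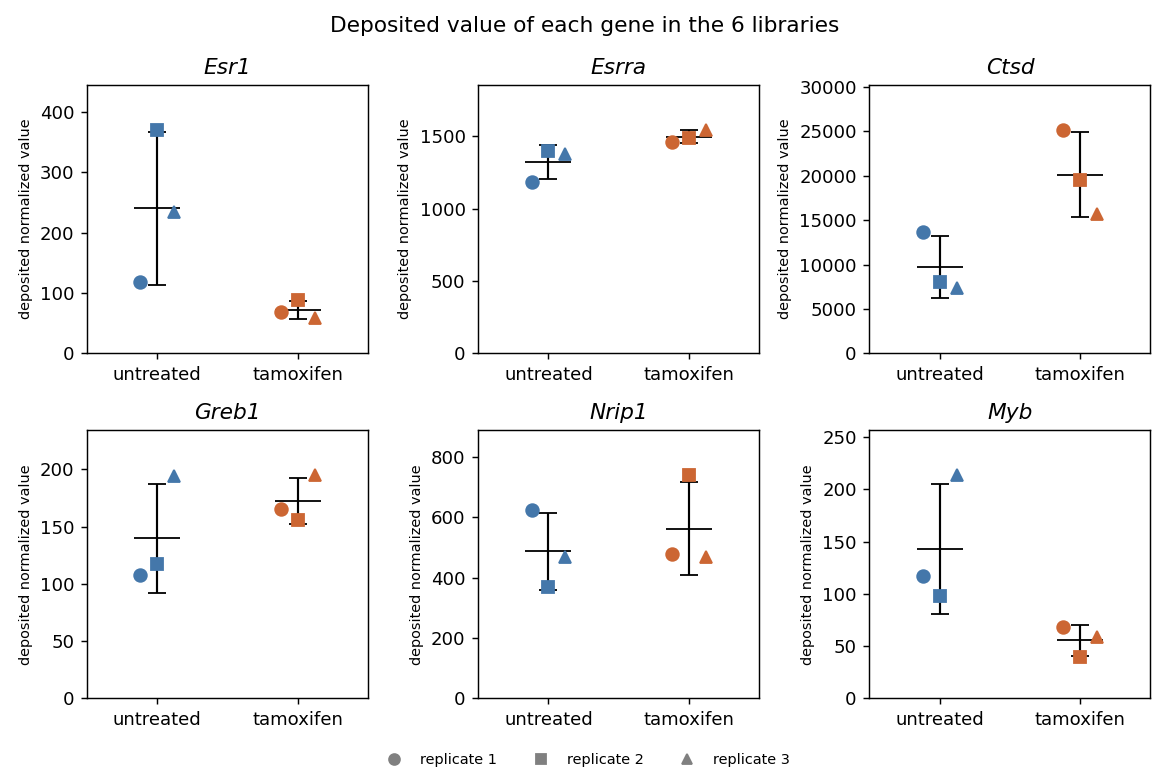
Deposited normalized value (y axis, from 0) of each gene in untreated and tamoxifen libraries. Symbols mark replicates 1 to 3, and the bar and whiskers give the mean and SD (n = 3 per group). The groups do not overlap for Esr1, Esrra, Ctsd and Myb, and they overlap for Greb1 and Nrip1.

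The receptor gene Esr1 (ENSMUSG00000019768, GRCm38 chromosome 10, 4611593 to 5005614, plus strand) was scarcely expressed. Deposited values stood at 117, 370.3 and 233 before treatment and at 68.7, 88.3 and 59.2 after it. Every treated value lay below every untreated one, and untreated replicate 2 stood highest. The mean was 240.4 ± 127 in untreated and 72.1 ± 14.8 in treated libraries (SD, n = 3 per group), so that treated libraries held 30.0% of it. On the log2 scale Esr1 differed by -1.59 (95% interval -2.79 to -0.40, limma adjusted p 0.433). These values rested on 46, 74 and 21 reads in untreated and 20, 29 and 38 in treated libraries.

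The deposited scale made the difference in Esr1 larger than the reads do. Divided by a size factor per library (the median ratio to the mean library), the reads were 38.8, 50.1 and 43.0 in untreated and 22.4, 36.1 and 23.1 in treated libraries. These scaled reads did not overlap either, and their treated mean was 61.9% of the untreated mean. On scaled reads the log2 difference was -0.71, with a 95% interval from -1.35 to -0.08 and a limma adjusted p of 0.595. As plain RPM the groups overlapped, with 11.9, 13.0 and 7.84 against 5.20, 12.4 and 7.43. The deposited value that 1 scaled read of Esr1 was worth ran from 2.45 to 3.06 in the treated libraries and in untreated replicate 1, but was 7.39 in untreated replicate 2 and 5.43 in untreated replicate 3.

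Esrra (ENSMUSG00000024955, chromosome 19, 6910977 to 6921813, minus strand) showed nearly level expression. Deposited values were 1186, 1401 and 1379.6 in untreated and 1459, 1487 and 1547 in treated libraries, on 42 to 139 reads. The treated values were all above the untreated ones, by a narrow margin, at 113% of the untreated mean. Esrra thus differed by 0.18 on the log2 scale (95% interval -0.09 to 0.46, limma adjusted p 0.680). On scaled reads, at 55.6, 90.8 and 86.0 against 79.7, 68.4 and 84.7, the groups overlapped, and the log2 fold change was 0.03 (95% interval -0.51 to 0.57). It overlaps Trmt112 on the other strand (13 to 62 reads), and whether counting used the strand is not stated.

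The other receptors of the family were measured too. Esr2, which encodes oestrogen receptor beta, had more reads than Esr1, with 92, 123 and 30 in untreated and 51, 53 and 109 in treated libraries. Its deposited values were 273, 429 and 263 against 205, 215 and 234, without overlap and with a log2 difference of -0.52 at a limma adjusted p of 0.600. Scaled reads of Esr2 overlapped, at -0.22. Esrrb was by far the best expressed receptor of the list, with deposited values of 7367 to 7785 in untreated and 6832 to 7979.7 in treated libraries. Its log2 fold change of -0.02 had a 95% interval from -0.27 to 0.23. On RPM, where the median gene itself stood at 0.25, Esrrb and Esr2 were at 0.29 and 0.049. Esrrg had 3 to 16 reads, a mean value under the limit, and no test. The progesterone receptor gene Pgr (0 to 5 reads) and the membrane receptor gene Gper1 (0 to 1) were close to the floor of detection. Of 7 receptors tested, 0 were called in either direction. The median log2 fold change was -0.02, against 0.00 for all genes tested.

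Nrip1 (ENSMUSG00000048490, chromosome 16, 76287400 to 76373827, minus strand) encodes RIP140, a corepressor that binds ligand-bound nuclear receptors and is itself induced by oestrogen in breast cells. Its deposited values were 623, 370.4 and 467 in untreated and 477, 740.0 and 468 in treated libraries. The groups overlapped, with treated replicate 2 highest and untreated replicate 2 lowest. The log2 fold change was 0.20 (95% interval -0.47 to 0.88, limma adjusted p 0.812), and without tamoxifen replicate 2 it was -0.01. On scaled reads it was 0.35 (-0.23 to 0.94).

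Other cofactors showed no call. Of 20 listed, 19 were in the table and 18 were tested, with 0 called higher and 0 lower. None passed an unadjusted p under 0.05, and their median was 0.04. The members with most reads were Phb2, a repressor of the receptor, at -0.03, the coactivator gene Ncoa3 at 0.04 and the corepressor gene Ncor1 at -0.35 on the log2 scale. The 95% intervals of these 3 include 0, and Ncor1 stood at 0.17 on RPM, below the median gene.

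Greb1 (ENSMUSG00000036523, chromosome 12, 16670615 to 16800886, minus strand) is among the most oestrogen-responsive genes of breast cells and encodes a receptor-bound cofactor. Deposited values were 108, 117 and 195 in untreated and 166, 156 and 195 in treated libraries, on 19 to 67 reads. Untreated replicate 3 lay among the treated libraries, so the groups overlapped. Its log2 fold change was 0.34 (95% interval -0.47 to 1.16, limma adjusted p 0.768). Scaled reads gave 0.39 (-0.26 to 1.03). As RPM the groups did not overlap, with 7.26, 6.33 and 7.10 against 8.32, 12 and 13.1, but on that scale the median of all genes tested stood at 0.25. Relative to it Greb1 was at 0.41. An annotated antisense gene, Gm48140, lies over Greb1 and is not among the rows of the table.

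Ctsd (ENSMUSG00000007891, chromosome 7, 142375911 to 142388038, minus strand) encodes cathepsin D, an aspartic protease of the lysosome and a classical oestrogen-induced gene. It had the most reads of the 6 genes, 303 to 1172 per library. A protein-coding gene on the same strand, Gm49369, overlaps it and is not among the rows of the table, and strand cannot tell their reads apart. Deposited values were 13681, 7980.1 and 7365 in untreated and 25183, 19479 and 15638 in treated libraries. All treated values were higher, and the mean went from 9675 ± 3483 to 20100.1 ± 4803 (SD, n = 3 per group), a ratio of 2.08. On the log2 scale this was 1.08 ± 0.29 (SE), 95% interval 0.38 to 1.79, at a limma adjusted p of 0.342.

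Most of that difference in Ctsd was absent from the reads. Scaled reads were 491, 761 and 620.1 in untreated and 861, 577 and 714 in treated libraries. They overlapped, and their means differed by a ratio of 1.15. The log2 fold change on scaled reads was 0.20 (95% interval -0.31 to 0.72, limma adjusted p 0.874). Here 1 scaled read was worth a deposited value of 10.5 and 11.9 in untreated replicates 2 and 3, and of 21.9 to 33.7 in the other 4 libraries. RPM values, at 151, 198 and 113 against 199, 199 and 229, did not overlap, although untreated replicate 2 almost reached the lowest treated library. Their log2 fold change was 0.48, which is 0.22 above that of the median gene.

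**Figure D2:**
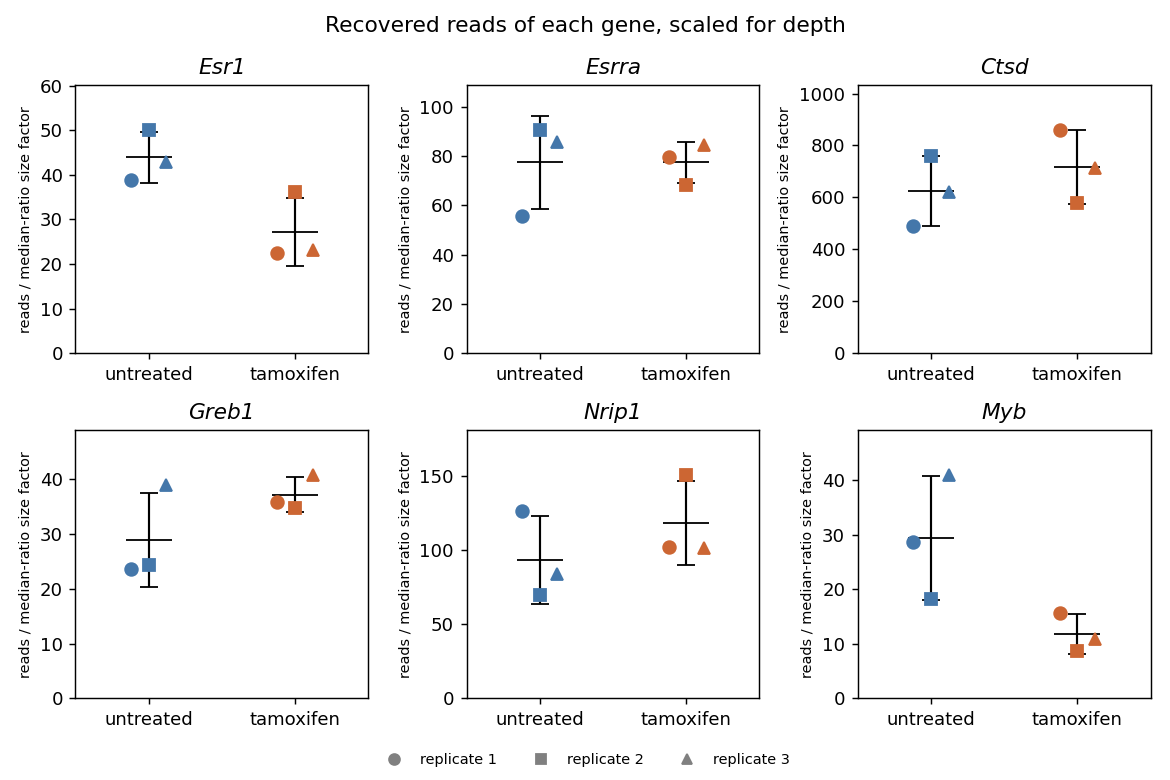
Recovered reads of each gene divided by the median-ratio size factor of its library (y axis, from 0), with symbols for replicates 1 to 3 and the mean and SD (n = 3 per group). Esr1 and Myb keep groups without overlap, and Ctsd and Esrra do not.

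Other lysosomal genes gave a setting for Ctsd. Of 27 listed genes 26 were tested, 0 were called in either direction, and 19 were higher and 7 lower. Their median log2 fold change was 0.17 on deposited values and 0.06 on scaled reads, against 0.00 and -0.02 for all genes. At an unadjusted p under 0.05, 6 were higher, which includes Ctsd, where 5.34% of all genes were, and 1 was lower, where 3.99% of all genes were. Among the higher ones besides Ctsd, chosen after their values were seen, were the protease genes Ctsb (0.47) and Ctsl (0.41), the membrane protein gene Lamp1 (0.28) and Gaa (0.46), which encodes an enzyme of glycogen breakdown. The lower one was Scarb2, a gene of the lysosomal membrane, at -0.62. On scaled reads Lamp1 stood at 0.03, Ctsl at 0.20 and Gaa at 0.42. Psap, another gene with many reads, was at 0.15 on deposited values and 0.01 on scaled reads.

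Myb (ENSMUSG00000019982, chromosome 10, 21124935 to 21160984, minus strand) encodes a transcription factor of blood progenitors whose transcription oestrogen receptor promotes in breast cells. Deposited values were 117, 97.9 and 214 in untreated and 68.6, 39.3 and 59.0 in treated libraries. Every treated library was lower, at a mean of 55.7 ± 14.9 against 143 ± 62.2 (SD, n = 3 per group), which left 38.9% of it. Myb differed by -1.30 ± 0.47 (SE) on the log2 scale, 95% interval -2.45 to -0.16, at a limma adjusted p of 0.496. It rested on few reads, 34, 27 and 20 against 14, 7 and 18.

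Unlike that of Ctsd, the difference in Myb was much alike on deposited values and on reads. Scaled reads were 28.7, 18.3 and 40.9 against 15.7, 8.71 and 11, again without overlap. Their log2 fold change was -1.24 (95% interval -2.11 to -0.37, unadjusted p 0.00906, limma adjusted p 0.445). RPM values were 8.82, 4.75 and 7.47 against 3.64, 3.0 and 3.52, also without overlap, and -1.22 on the log2 scale relative to the median gene. Over all 16 alternatives the log2 fold change of Myb lay between -1.53 and -0.94, and the lowest limma adjusted p was 0.288. An annotated antisense gene, Gm26577, lies over Myb and is not among the rows of the table, so reads from it could be counted as Myb if strand was not used, and the same holds for Greb1.

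The paralogues of Myb gave other values. Mybl2, the family member of dividing cells, had 649 to 2307 reads and a log2 fold change of 0.01 on deposited values and -0.33 on scaled reads. Mybl1 stood at 0.47 and 0.75. Neither was called. Blood cell markers were sparse, and Hbb-y had 0 reads in every library. Their sum was 6.72 to 8.96 RPM in untreated and 13.5 to 362 in treated libraries, where the highest sum rests on Tal1 in treated replicate 1 alone (1347 reads, against 3 to 6 in the other libraries).

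**Figure D3:**
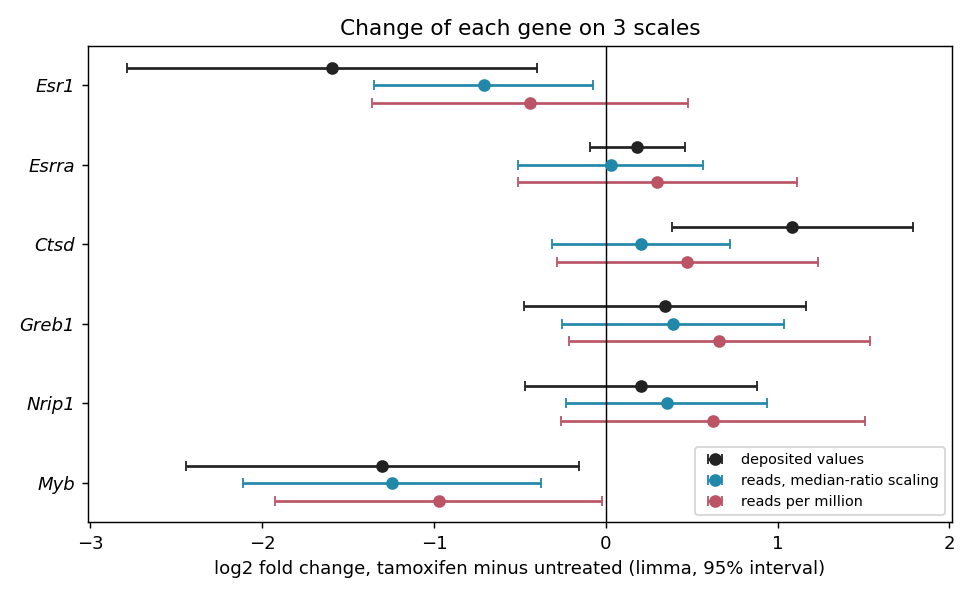
Log2 fold change of each gene, tamoxifen minus untreated, with its 95% limma interval (x axis), on deposited values, on reads with median-ratio scaling and on RPM. Esr1 and Ctsd shrink from -1.59 and 1.08 to -0.71 and 0.20 on scaled reads, while Myb stays at -1.24. The 2 read scales differ because the median of all genes is 0.25 on RPM.

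The deposited values are not reads over 1 factor per library, and this touched Esr1 and Ctsd more than the other 4 genes. For each gene with at least 10 reads on average, the log2 fold change on scaled reads was taken from that on deposited values. From the 5th to the 95th percentile of 11488 genes this difference ran from -0.34 to 0.31. It was -0.88 for Esr1 and 0.88 for Ctsd, at percentiles 0.252 and 99.5. For Esrra it was 0.15, for Greb1 -0.04, for Nrip1 -0.15 and for Myb -0.06. Across genes, which are not independent replicates, the difference had a Spearman rho of 0.447 with the GC content of the longest transcript and -0.288 with its length. The transcripts of Esr1 and Ctsd have 45.4% and 55.9% GC, and the median difference of genes in the same decile of GC content was -0.07 and 0.11.

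**Figure D4:**
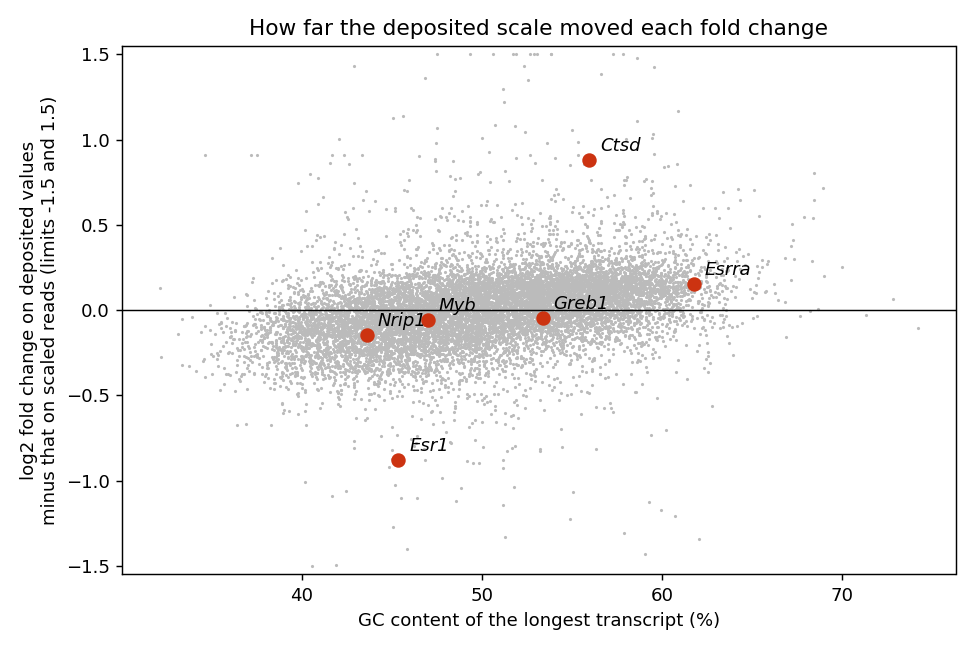
Difference between the log2 fold change on deposited values and on scaled reads (y axis, drawn between -1.5 and 1.5) against GC content of the longest transcript (x axis, percent). Grey points are 11488 genes with at least 10 reads on average. Esr1 at -0.88 and Ctsd at 0.88 lie in the tails of the cloud, at percentiles 0.252 and 99.5. The other 4 genes lie between its 5th and 95th percentiles.

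Wider lists of receptor targets, written with earlier results of these data known, held no called gene. Of 32 genes known to respond to oestrogen receptor in breast cells or uterus, 27 were tested, with 0 called in either direction, where 0.126% of all genes were called higher and 0.0689% lower. There were 16 higher and 11 lower, with a median of 0.20, or 0.07 over the 18 better covered ones that average 10 reads or more. On scaled reads 18 were higher and 9 lower, and these medians were 0.31 and 0.14. On RPM the median was 0.59, with the median of all genes at 0.25. The members with most reads besides the genes above were Ccnd1, a cell cycle gene, at 0.18, Xbp1, a stress response factor, at -0.08 (0.079 on RPM), and Rara, a retinoic acid receptor gene, at -0.36. On scaled reads Ccnd1 and Xbp1 stood at 0.03 and -0.19, with overlap. Rara stood at -0.52 there, without overlap, at an unadjusted limma p of 0.036 and an adjusted p of 0.615. On deposited values 6 genes of the list were higher at an unadjusted p under 0.05, where 5.34% of all genes were. There were 2 lower, where 3.99% were, and all 8 are named here after their values were seen.

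The 6 higher ones were Ctsd, Lif, Krt19, Wnt4, Ltf and Muc1. Lif, a cytokine gene induced by oestrogen in the uterus, had 9, 15 and 5 reads in untreated and 23, 14 and 28 in treated libraries. Its log2 fold change was 1.0 on deposited values (limma adjusted p 0.235) and 1.04 on scaled reads. Krt19, a keratin gene of epithelium and trophoblast, stood at 0.59 and 0.72. Wnt4 had 1, 2 and 1 reads against 6, 5 and 14. On deposited values it stood 2.90 higher on the log2 scale, at a limma adjusted p of 0.105. Scaled reads put Wnt4 at 2.02, with a limma adjusted p of 0.339, so the deposited scale made its difference larger by 0.87. Ltf and Muc1, the classical uterine response genes, had at most 1 read in an untreated library and 1 to 5 in a treated one, so their fitted changes carry little weight. The 2 lower ones were Myb and Stc2. Stc2, a secreted glycoprotein gene, had 50, 54 and 18 reads against 23, 7 and 37, with a log2 fold change of -0.92 on deposited values and -1.13 on scaled reads.

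Targets of oestrogen-related receptors went both ways. Of 18 genes tested 0 were called and none passed an unadjusted p under 0.05. Their log2 fold changes ran from -2.97 to 0.80 on deposited values, with 10 higher, 8 lower and a median of 0.01. On scaled reads 5 were higher and 13 lower, with a median of -0.08. Among the members with most reads were genes of the tricarboxylic acid cycle, Cs at 0.02 and Sdhb at -0.10 on the log2 scale. Their 95% intervals were -0.35 to 0.40 and -0.35 to 0.15. On scaled reads Cs stood at -0.22.

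**Figure D5:**
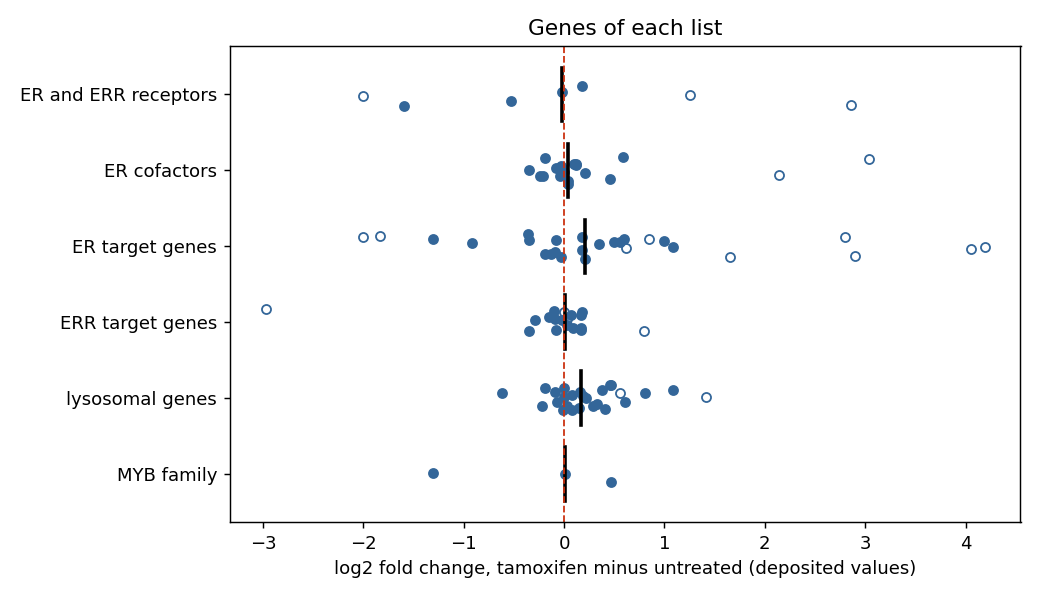
Log2 fold change on deposited values (x axis) of each tested gene of 6 lists (y axis). Filled points have at least 10 reads on average and open points fewer, the black bar is the median of the list, and the dashed line is the median of all genes. The widest changes in the receptor and target lists are open points, and 0 of these genes are called.

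Expression levels were compared per length, as RPM per kilobase of the longest transcript (RPKM), over all 6 libraries. Ctsd was highest at 85.4 ± 19.7 (SD, n = 6), in a range from 53.2 to 108. Esrra followed at 9.34 ± 2.01 and Nrip1 at 3.82 ± 1.76. Esr1 was at 1.52 ± 0.510, Myb at 1.41 ± 0.647 and Greb1 at 1.12 ± 0.352. The ranges of Ctsd, Esrra and Nrip1 did not overlap each other, while Nrip1 (1.95 to 6.59) reached down into the range of Esr1 (0.820 to 2.05). With the mean transcript length in place of the longest, Nrip1 overlapped Esrra and stood clear of Esr1. Over all 6 libraries the ranges of Esr1, Myb and Greb1 overlapped, but their order differed between the groups. In untreated libraries Greb1 (0.785 to 0.901) lay below every value of Esr1 (1.24 to 2.05) and Myb (1.28 to 2.39), whose ranges overlapped each other. After treatment Myb (0.812 to 0.985) lay below every value of Greb1 (1.03 to 1.63), and Esr1 (0.820 to 1.96) overlapped both. The order of the 3 over all libraries also changed with the mean transcript length or with deposited values. The order within groups rests on the longest transcript too. With the mean length the untreated ranges of Greb1 and Myb overlapped, and treated Esr1 lay above treated Myb. On this scale Esr2 was at 5.65 ± 1.59 and Esrrb at 57.6 ± 10.7.

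The genes with the most similar profiles were found by the root mean square difference of centred log2(value + 1) over the 6 libraries, among 11832 others with at least 10 reads on average. For Esr1 these were the unnamed gene ENSMUSG00000084922 (0.312) and Cfhr2 (0.353), where the median gene was at 0.973. For Ctsd they were Prkag1 (0.119) and Rab23 (0.159), and for Myb they were Mef2b (0.230) and Slc8a2 (0.231). Esrra was nearest to Chtf18 (0.0232) and Pgap2 (0.0445), Greb1 to Atg16l2 (0.0607) and Rundc3a (0.0862), and Nrip1 to Coro2a (0.0638) and Atf1 (0.0809). On scaled reads 0 of these 12 neighbours were again among the nearest pairs. A gene can leave the nearest pair and still be close, so whether the likeness is lost on that scale was not tested.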

How the data were processed

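Total RNA was depleted of ribosomal RNA and made into directional libraries, per the labels' protocols. TopHat2, bedtools, DESeq2 and the build mm9 appear in the submitters' processing notes, and the counting rule is not given in the sources used here. The deposited table holds a normalized signal per gene and library, and all 6 columns were matched by genotype and replicate number. The test was planned for normalized counts and kept for this form. All 100305 nonzero values solve to 9.73 × k × (m + 0.1) / (k + 0.1) for whole numbers k and m, and k was taken as reads, with 1 solution for 98.8% of values and for every value of the 6 genes. For 1189 values with more solutions, the one closest to the same gene elsewhere (1070 values) or to the typical m per k of that library (119 values) was used. Ordered by size, m differed by at most 4 between libraries. Tests used limma 3.58.1 in R 4.3.3 with an expression trend. Python 3.11.15 with numpy 2.4.6, pandas 2.3.3, scipy 1.17.1 and matplotlib 3.10.9 did the rest. Symbols, gene coordinates and transcript lengths are GENCODE vM21 on GRCm38, for 20273 genes. The solver and the fit were tested on simulated data.

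The 6 genes, the lists and the alternatives were chosen with earlier results of these data known. Named were the 6 genes, Ezh2, the other receptors and Myb paralogues, the 3 genes of each list with most reads, called list genes, and the 2 nearest profiles per gene. List genes at an unadjusted p under 0.05 and the median-ratio scaling of reads were added after seeing the data. Some genes of the lists are not reported here by name.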

Additional observations from a re-analysis of the deposited data

How the results depend on the processing

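None of the 6 genes was called under any of 16 alternatives, and 95 of 96 values kept their sign, with limma adjusted p from 0.143 to 0.991. Esr1 ran from -2.03 to -0.44, Ctsd from 0.20 to 1.36 and Myb from -1.53 to -0.94. The exception was Nrip1 at -0.010 without tamoxifen replicate 2. The other filters and the replicate block cannot move a fold change of these genes, so the signs under them were fixed in advance. Deposited values of Esr1, Esrra, Ctsd and Myb did not overlap between groups. For these 4 genes the other pseudocounts and leaving out 1 library could not turn the sign either. The count of kept signs is thus largely not a test of stability. Median-ratio scaling of the deposited values, with size factors from 0.997 to 1.01, and quantile normalization moved the fold changes of the 6 genes little. The number of genes called, 34, became 52 with a pseudocount of 10, 52 with no filter on low values, 15 among genes with at least 10 reads on average, 7 on RPM, 5 on scaled reads and 5 with voom. It was 32 to 56 when 1 library was left out, the highest without untreated replicate 2. With the replicate number as a block it was 0, against 1393 genes at an unadjusted p under 0.05 in limma. In no comparison of the 6 genes or their lists did the block give a call. Same-numbered libraries did not deviate together (correlations -0.020, -0.027 and 0.013), so the numbers were not taken as pairs. The planned edgeR and DESeq2 tests were not run, since the deposited values are not reads over 1 factor per library.

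Over 33 named genes, 495 of 519 values kept their sign and their side of the threshold, and 24 turned. These counts include settings that cannot move a fold change or cannot turn its sign. The turned values on RPM were Esrrb 0.29, Esr2 0.049, Ncor1 0.17, Xbp1 0.079 and Mybl2 -0.058. With voom they were 0.29, 0.037, 0.16, 0.075 and -0.073 in the same order. Scaled reads turned Esrrb (0.022), Cs (-0.22) and Mybl2 (-0.33). With 1 library left out, Nrip1 ran from -0.010 to 0.40, Esrrb from -0.068 to 0.044, Phb2 from -0.11 to 0.018, Ncoa3 from -0.043 to 0.17, Xbp1 from -0.14 to 0.00080, Cs from -0.12 to 0.11 and Mybl2 from -0.079 to 0.090. Relative to the median gene on RPM, Esr2, Ncor1 and Xbp1 stood at -0.20, -0.08 and -0.17, with the sign of the main fit. Esrrb at 0.041 and Mybl2 at -0.31 stayed turned. The cause of the turns was not tested. The scaled-read alternatives and the other pseudocounts for the nearest profiles were chosen after seeing the data. Depth limits Esr1, Greb1 and Myb most, with 7 to 74 reads per library.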

Other observations

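Tal1, a blood progenitor transcription factor gene, had 4, 6 and 3 reads in untreated and 1347, 3 and 4 in treated libraries. Treated replicate 1, the library with 1347, had 2 reads of Ptprc and 35 of Runx1, against 2 to 7 and 5 to 50 in the other libraries.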
